A study of Homo sapiens with 45 samples.

Results

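The AC1.112 line at 72 h after transfection was compared with the same line before transfection, at 0 h. AC1.112 is one clonal, wild-type line of HEK293F, a derivative of human embryonic kidney 293 cells that carries adenovirus E1 genes and grows in suspension. The 3 libraries titled AC1.112 at 72 h and the 3 titled AC1.112 at 0 h were taken by their titles, 6 of the 45 libraries of the series. The other libraries were 3 of AC1.112 at 24 h, and 36 of 4 further lines at 0, 24 and 72 h, labelled wild type: the clones AC1.203 and AC1.230, the polyclonal line AC1P and 293F. Cells were grown in Expi293 medium and transfected with 3 plasmids by means of the reagent TransIT-VirusGEN: pHelper, RepCap9 and a reporter plasmid with inverted terminal repeats. The 0 h cells had received no plasmid, and no mock-transfected library was analysed here, so transfection, the plasmids and the time in culture cannot be told apart. Each group rests on 1 clone, and the labels do not say whether its 3 libraries came from separate cultures. The p-values measure the spread between libraries within groups, taken over all 15 groups of the series, and this spread may be technical.

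Recombinant adeno-associated virus is made in such cells by supplying the viral replication and capsid genes, adenoviral helper functions and a genome flanked by terminal repeats on plasmids. Foreign DNA, helper proteins and the load of making capsids are each known to engage stress signalling, innate immune sensing, chromatin and the cell cycle. The comparison addressed how the host transcriptome of this clone stood at the end of a production run, and the study's stated purpose was to learn how vector production affects gene expression.

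Libraries held 27992171 to 49239986 counts at 0 h and 34877251 to 47765673 at 72 h. Between 22948 and 24508 genes had a count at 0 h, and 25063 to 25958 at 72 h. The 20 most abundant genes took 11.3% to 11.6% of the counts at 0 h and 10.5% in each library at 72 h, and mitochondrially encoded genes took 3.21% to 3.24% and 3.39% to 3.64%. Levels are given in CPM, counts per 1e6 of the library's total after it was multiplied by its scaling factor (TMM, given below). Correlations of log2 CPM were 0.986 to 0.991 between libraries of 1 time and 0.982 to 0.986 between the times. Counts of libraries of 1 time differed beyond sampling noise (chi-square per degree of freedom 4.08 to 9.53), so none was a second deposit of another. Of the kidney markers, EYA1, WT1 and LHX1 were present at mean CPM above 5 at both times, while UMOD and SLC12A1, markers of mature nephron segments, had no count at either time, and the neurofilament genes NEFM and NEFL, long known in HEK293 cells, were abundant.

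At 72 h, 843 of 21242 tested genes were called higher, which is 3.97%, and 68 were called lower, which is 0.320%. The call needed a difference of 2-fold or more and an adjusted p (Benjamini-Hochberg, all genes) under 0.05 in edgeR's quasi-likelihood test. In 802 of the 843 genes called higher, every 72 h library lay above every 0 h library, and the same held downwards for 52 of the 68 genes called lower. The calls rest on these same libraries, so these counts describe the called genes and are not separate support. With no minimum fold, 3017 genes rose (14.2% of those tested) and 3909 fell (18.4%). Counts within a gene list are to be read beside these shares. In the text below, rose and fell mean an adjusted p under 0.05 in this test. The median log2 fold change of all genes tested was 0.008. This centre was set by the scaling: trimmed mean of M-values (TMM) factors were 0.899 to 0.928 at 0 h and 1.01 to 1.02 at 72 h. With library totals alone, a scaling added after the data were seen, the median was 0.159, 5485 genes rose and 1472 fell. Small changes are therefore given relative to the median gene, and a list whose direction depends on the scaling is marked as such.

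**Figure D1:**
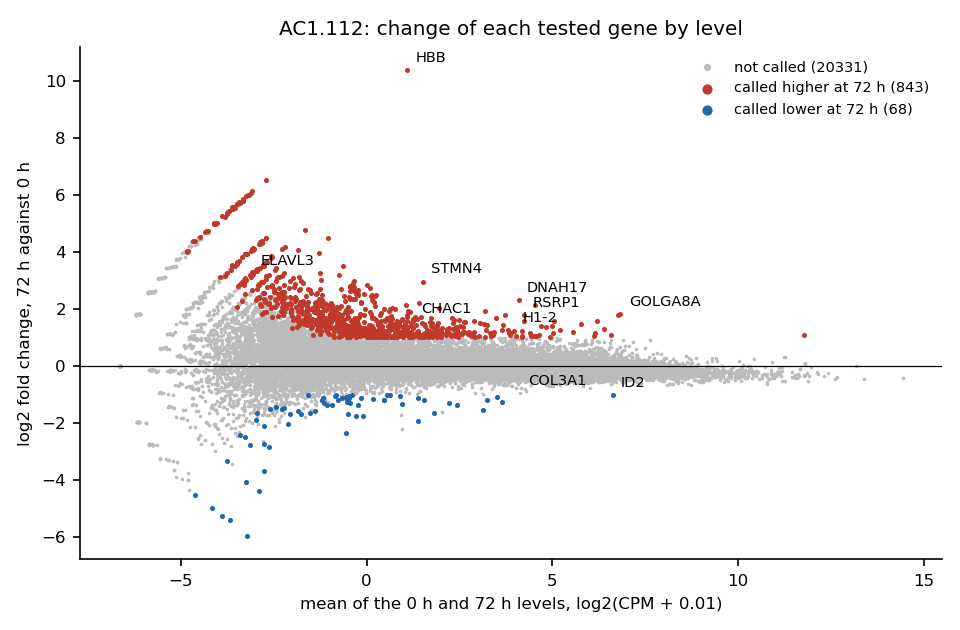
Log2 fold change of each tested gene at 72 h against 0 h in AC1.112 (vertical axis) by its mean level (horizontal axis, log2 of CPM plus an offset of 0.01). Each point is 1 gene, red for the 843 called higher, blue for the 68 called lower; most called genes lie at low levels, and HBB stands highest at 10.39, a fitted value for a gene with no count at 0 h.

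Most called genes were scarce, and 41 of those called higher had no count at 0 h. Of 10854 genes that averaged at least 3 on the log2 CPM scale at either time, 68 were called higher and 5 lower. Long noncoding and antisense genes were called higher in 7.66% of 3303 tested, with a median log2 fold change of 0.275, and pseudogenes other than processed ones in 10.6% of 792, with a median of 0.323. Protein-coding genes were called higher in 2.79% of 15177, with a median of -0.023. The median also ran with level, from 0.438 for genes under 0.25 CPM to -0.139 for genes over 64 CPM. The other 4 lines showed the same order, with 0.292 to 0.436 under 0.25 CPM and -0.181 to -0.093 over 64 CPM. The part that library make-up or RNA quality played in this trend was not tested.

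DNAH17 had the highest fold change among protein-coding genes that averaged at least 3 on the log2 CPM scale at either time. It encodes an axonemal dynein heavy chain and lies on chromosome 17 (ENSG00000187775, GRCh38 chr17:78423697-78577394, minus strand). Its level was 4.45, 6.21 and 6.74 CPM at 0 h and 26, 28.4 and 30.4 CPM at 72 h. The groups lay far apart, a 4.95-fold difference (log2 fold change 2.31 ± 0.15 SE, adjusted p = 4.36e-13). At 24 h it stood at 6.45 CPM, not past the threshold against the same 0 h libraries (adjusted p = 0.511), and it rose between 24 and 72 h (2.13, adjusted p = 1.32e-12). The fold change was positive in the other lines as well, from 2.26 in AC1.203 to 4.08 in AC1.230.

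RSRP1, an arginine- and serine-rich protein gene, was at 8.05, 7.80 and 9.82 CPM at 0 h, averaged 21.8 CPM at 24 h and reached 28.1, 31.5 and 27.5 CPM at 72 h. Every 72 h library exceeded every 0 h library (log2 fold change 1.77 ± 0.19, adjusted p = 2.31e-08). GOLGA8A and GOLGA8B, near-identical golgin genes on chromosome 15 between which reads can be split, rose by 1.81 and 1.79 on the log2 scale. GOLGA8A went from 53.9, 37.7 and 60.4 CPM to 157, 182 and 194 CPM. Both values are uncertain as to which copy gave the reads. RSRP1, GOLGA8A and GOLGA8B had also risen at 24 h against the same 0 h libraries, by 1.36, 1.13 and 1.09. SEC31B, a homologue of a COPII coat protein, rose by 1.78. MAMDC4 (1.70), COL7A1 (1.62), which encodes the anchoring-fibril collagen, and the atypical MAP kinase gene MAPK15 (1.55) followed. YJEFN3 rose by 1.48 and the autophagy gene ATG16L2 by 1.43. AMH, the anti-Müllerian hormone gene, rose from 30.9, 22.3 and 33 CPM to 65.1, 64.5 and 66.9 CPM. It more than doubled with no overlap (1.19 ± 0.19). None of these 11 genes, DNAH17 and RSRP1 included, passed the test of a difference from the other 4 lines (adjusted p from 0.0635 for DNAH17 to 0.947 for AMH).

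Noncoding transcripts were among the highest as well, picked out after their values were seen. ANKRD19P, a transcribed pseudogene, was at 9.04, 5.89 and 11.1 CPM at 0 h and 34.2, 39.9 and 38.5 CPM at 72 h (log2 fold change 2.13, adjusted p = 2.94e-06). HERC2P2, a pseudogene copy of HERC2, rose by 1.59 from 37.7, 30.4 and 42.4 CPM to 102, 116 and 114 CPM. NEAT1, the architectural RNA of nuclear paraspeckles, rose from 41.5, 38.9 and 51.7 CPM to 90.9, 106 and 96.9 CPM. In all 3 genes the times did not overlap. SNHG12, a small nucleolar RNA host gene annotated as antisense, rose by 1.57 and by 1.45 to 1.64 in the other lines. The strand setting of the counting is not given in the sources used here, so reads of overlapping genes cannot be told apart.

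**Figure D2:**
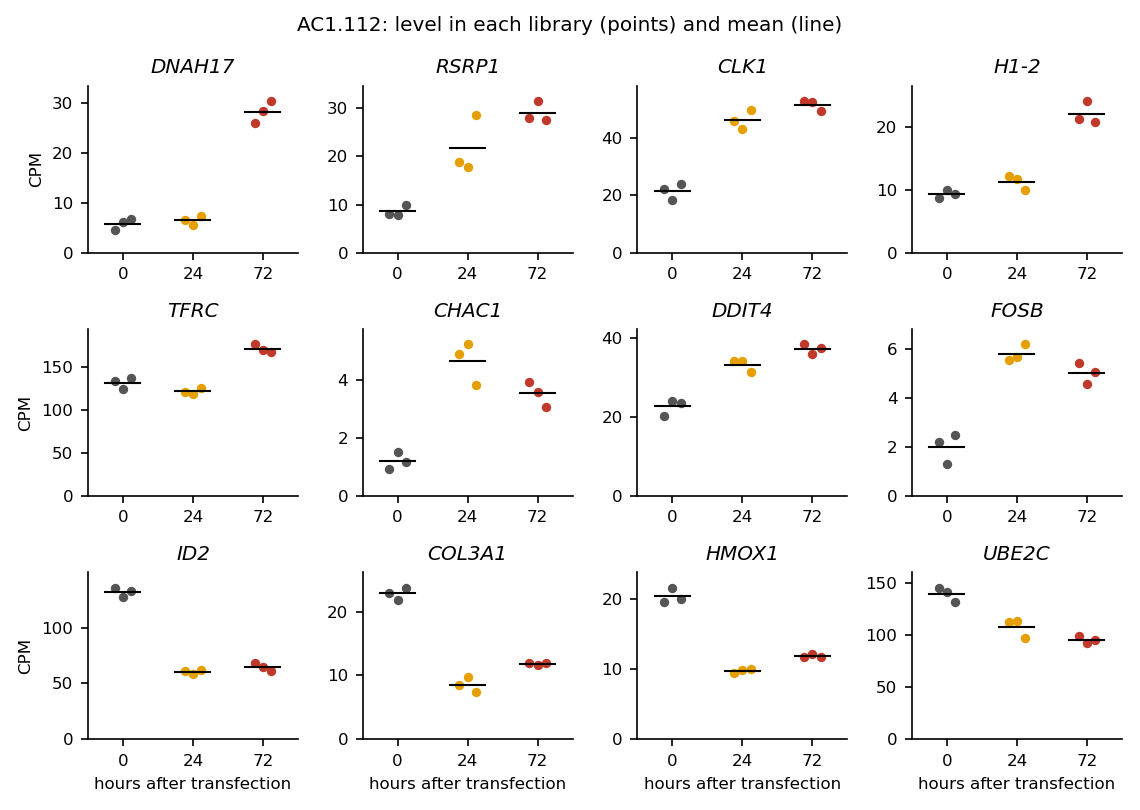
Level in CPM (vertical axes, each from 0) of 12 genes in the 3 AC1.112 libraries at 0, 24 and 72 h after transfection (points), with the mean of each time (line). DNAH17, H1-2 and TFRC stand apart at 72 h, RSRP1 and CLK1 are already high at 24 h, and ID2, COL3A1 and HMOX1 are low at 24 and 72 h.

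The 5 genes called lower at this level were ID2, RPS10 and 3 processed pseudogenes. ID2 encodes an inhibitor of basic helix-loop-helix transcription factors (ENSG00000115738, GRCh38 chr2:8678845-8684453, plus strand). Its level was 136, 128 and 133 CPM at 0 h and 68.5, 64.9 and 60.7 CPM at 72 h. All 72 h libraries lay below all 0 h libraries, and it fell by 1.03 ± 0.06 on the log2 scale (adjusted p = 2.93e-20). It was already at 60.7 CPM at 24 h, and its fold change ran from -1.76 to -0.81 in the other lines. RPS10, a ribosomal protein gene, fell by 1.1 from 16.2, 18.9 and 11.1 CPM to 7.63, 7.19 and 6.97 CPM. RPL10, another ribosomal protein gene, stood at 1342 CPM or more in every library, and RPS10 has a readthrough neighbour and many pseudogene copies, so its value is uncertain. The pseudogenes were ENSG00000227615 (-1.54), RPL7AP50 (-1.26) and RPS26P11 (-1.20).

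Of the replication-dependent histone genes measured, 21 of 42 rose and none fell. These genes supply histones in S phase, and their messages normally end in a stem-loop rather than a poly(A) tail, whereas the libraries were made from polyadenylated RNA. Of 60 listed, 42 were measured, 21 rose, 0 fell and 21 did not pass. The list median was 0.974, or 1.08 from summed counts with library totals and genes without a count set at 3 counts, against 0.008 for all genes. Under library totals 21 rose and 0 fell as well. H1-2, a linker histone gene on chromosome 6, was at 8.73, 10 and 9.36 CPM at 0 h, 11.3 CPM on average at 24 h and 21.4, 24.2 and 20.9 CPM at 72 h. It more than doubled with no overlap (log2 fold change 1.24 ± 0.09, adjusted p = 4.06e-17). H2AC18 and H2AC19, near-identical H2A genes on chromosome 1, rose by 1.56 and 1.52. H2AC19 went from 4.63, 4.28 and 3.93 CPM to 13.3, 13.6 and 10.4 CPM. H2BC15 rose by 1.26, H2BC5 by 1.22 and H4C8 by 1.48, the last from 0.962, 1.03 and 0.578 CPM to 2.06, 3.08 and 2.31 CPM. Members that did not pass spanned -1.34 (H2AC12) to 3.52 (H3C12). Whether polyadenylation of histone messages changed was not tested, and bulk RNA cannot tell more cells in S phase from more RNA per cell, here or for the cell cycle genes below.

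The list median was 1.89 in 293F, 1.81 in AC1.203, 0.714 in AC1.230 and 0.347 in AC1P, and 28, 26, 20 and 13 of the 42 members rose there. The test of AC1.112's fold change minus the mean of the other 4 lines was more positive at an adjusted p under 0.05 for 0.819% of all genes and more negative for 1.56%. Of the 42 histone genes, 10 were more negative and 0 more positive, with a median difference of -0.49. H1-2 was lower in its response by 1.24 ± 0.10 on the log2 scale (adjusted p = 3.91e-14), with fold changes of 3.28 in 293F, 3.75 in AC1.203, 2.00 in AC1.230 and 0.88 in AC1P. Levels of H1-2 at 0 h were 9.37 CPM ± 0.646 (SD, n = 3) in AC1.112, 5.89 ± 0.160 in 293F, 3.82 ± 0.300 in AC1.203, 5.15 ± 0.480 in AC1.230 and 10.4 ± 0.446 in AC1P. AC1.112 and AC1P thus had the highest starting levels and the smallest fold changes. At 72 h the order of H1-2 was 57.2 CPM in 293F, 51.6 in AC1.203, 22.1 in AC1.112, 20.7 in AC1.230 and 19.1 in AC1P, and among the last 3 each neighbour in that order differed by less than the SD of 2.23 CPM in AC1.230.

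**Figure D3:**
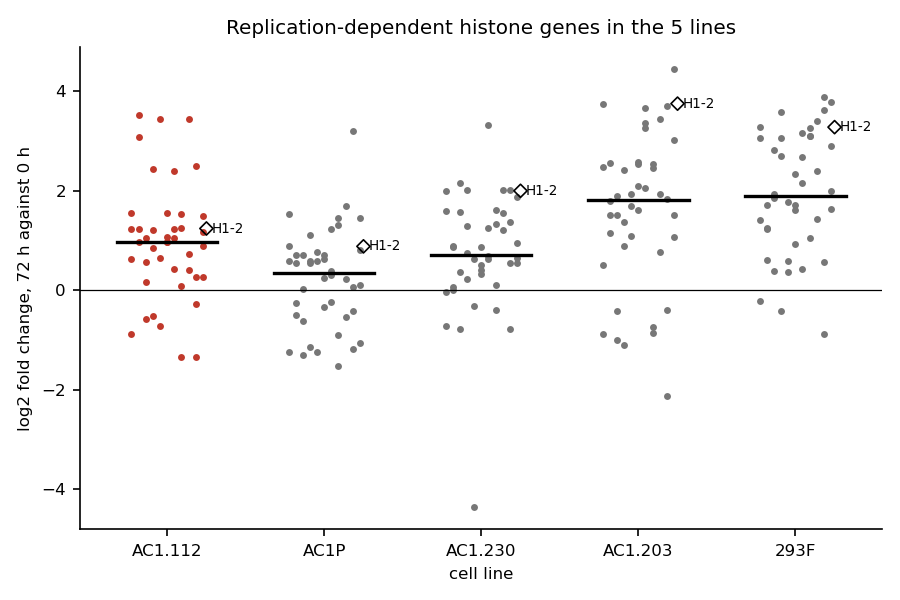
Log2 fold change at 72 h against 0 h (vertical axis) of the 42 measured replication-dependent histone genes in the 5 lines (horizontal axis); points are genes, bars are medians and the diamond is H1-2. AC1.112 (red, median 0.974) lies between AC1.230 at 0.714 and AC1.203 at 1.81.

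Immediate early genes, the first transcriptional response to growth factor and stress signals, rose in 15 of 42 cases, fell in 4 and did not pass in 23 (median 0.143), with 25 and 4 under library totals. FOSB, an AP-1 subunit gene, was at 2.21, 1.32 and 2.50 CPM at 0 h, 5.82 CPM on average at 24 h and 5.44, 4.58 and 5.07 CPM at 72 h (log2 fold change 1.34 ± 0.18, adjusted p = 4.88e-08). The zinc finger genes EGR2 and EGR3 rose by 1.02 and 0.89, from levels of 1.90 CPM or less to levels of 2.63 CPM or more. None of the FOSB, EGR2 or EGR3 libraries overlapped between the times. The feedback inhibitors of ERK signalling DUSP6 and SPRY4 were scarce: DUSP6 had 59 counts at 0 h and 168 at 72 h, and SPRY4 12 and 47. Apart from DUSP1, the other DUSP, SPRY and SPRED genes measured on the list did not pass. These were DUSP2 (0.495), DUSP4 (-0.12), DUSP5 (0.35), SPRY2 (-0.14), SPRED1 (0.03) and SPRED2 (0.08). Leaving out 0 h replicate 1 ended the calls of EGR3 (adjusted p = 0.0552), DUSP6 (0.109) and SPRY4 (0.213), and leaving out 1 of several other libraries ended them too, with adjusted p up to 0.110. The 4 that fell were GADD45G (-0.62), KLF4 (-0.47), DUSP1 (-0.37) and MYC (-0.34). GADD45G went from 40.6, 43.4 and 43 CPM to 28.3, 28 and 26.1 CPM, with no overlap. FOS and JUN themselves stood at 0.26 and -0.04 and did not pass.

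NF-kB subunits, inhibitors and targets, which serve inflammatory and survival signalling, rose in 12 of 32 cases and fell in 1, RELA at -0.16, with a median of 0.293 (15 and 0 under library totals). TRAF1, a signalling adaptor gene, was at 4.59, 4.55 and 5.74 CPM at 0 h and 7.38, 8.18 and 7.63 CPM at 72 h (log2 fold change 0.65 ± 0.15). REL, a subunit gene, rose by 0.50, BCL3 by 0.50 and the target IER3 by 0.54. ICAM1, a surface adhesion gene, had 20 counts at 0 h and 66 at 72 h. The call of ICAM1 ended without 0 h replicate 3 (adjusted p = 0.0568) or 72 h replicate 1 (0.0723), and that of BCL3 without any 1 of 4 libraries (0.0700 to 0.0978). The letters of a kappa B element, read on either strand, were in 10 of 29 RefSeq promoter windows of this list, 34.5%, and in 1.9% of 27305 windows of all genes. Chemokine targets at very low level, among them CXCL8 (0.23), CXCL1 (0.32) and CXCL10 (0.98), did not pass.

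p53 targets rose in 14 of 30 cases, fell in 3 and did not pass in 13 (median 0.135). PLK3 and PLK2, stress-responsive polo-like kinases, rose by 0.63 and 0.60. PLK2 was at 12.4, 9.01 and 11.3 CPM at 0 h and 16.2, 16.2 and 17.1 CPM at 72 h. The DNA damage binding gene DDB2 rose from 49.5, 51.6 and 50.9 CPM to 62.3, 65.9 and 64.9 CPM. All 72 h libraries lay above all 0 h libraries for PLK2 and DDB2, with fold changes below 2. The cell cycle inhibitor CDKN1A, a main p53 target, stood at -0.09 and did not pass, and CCNG1 (-0.20) and BAX (-0.19) were among those that fell.  Under library totals 22 of the 30 rose and 0 fell, so these falls depend on the scaling.

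The ATF4 list holds genes induced by amino acid shortage and other causes of eIF2 phosphorylation. Of 46 measured, 16 rose, 6 fell and 24 did not pass (median 0.083). CHAC1, a glutathione-degrading enzyme, was at 0.940, 1.51 and 1.16 CPM at 0 h, 4.64 CPM on average at 24 h and 3.94, 3.59 and 3.07 CPM at 72 h. It rose by 1.57 ± 0.21 on the log2 scale (adjusted p = 7.17e-08) and by 1.12 to 1.5 in the other lines. FGF21, a secreted stress hormone, had no count in the 3 libraries at 0 h and 9, 5 and 9 counts at 72 h, at least 7.38-fold higher against a floor of 3 counts over the group (lower limit of the 95% counting interval 5.53). DDIT4, an mTORC1 inhibitor, went from 20.3, 24.2 and 23.7 CPM to 38.5, 36 and 37.6 CPM (0.72 ± 0.06, adjusted p = 1.42e-13). STC2 rose by 0.72 and DDIT3, the CHOP transcription factor gene, by 0.86, and neither overlapped between the times. Of the amino acid synthesis genes on the list, CTH rose by 0.43, while ASNS stood at 0.06 and PSAT1 at -0.10, neither past the threshold. WARS1 (-0.31), SLC1A5 (-0.29), PCK2 (-0.28), PHGDH (-0.27), EPRS1 (-0.20) and AARS1 (-0.19) fell. Under library totals 28 of the 46 genes rose and 3 fell.

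The RefSeq promoter windows (GRCh38.p14, 250 bases before to 50 bases after the start) of CHAC1 and FGF21 are shown because both genes rose and both hold the letters of the C/EBP-ATF response element, TGATGNAA, here on the opposite strand and in capitals. CHAC1 is at chr15:40953221-40953520 and FGF21 at chr19:48755274-48755573, both on the plus strand.
CHAC1: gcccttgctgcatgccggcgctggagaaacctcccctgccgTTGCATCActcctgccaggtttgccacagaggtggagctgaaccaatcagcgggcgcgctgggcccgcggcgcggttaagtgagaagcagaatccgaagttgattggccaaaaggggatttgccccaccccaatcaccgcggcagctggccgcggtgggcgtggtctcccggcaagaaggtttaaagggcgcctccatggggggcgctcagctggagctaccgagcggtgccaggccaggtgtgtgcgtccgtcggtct
FGF21: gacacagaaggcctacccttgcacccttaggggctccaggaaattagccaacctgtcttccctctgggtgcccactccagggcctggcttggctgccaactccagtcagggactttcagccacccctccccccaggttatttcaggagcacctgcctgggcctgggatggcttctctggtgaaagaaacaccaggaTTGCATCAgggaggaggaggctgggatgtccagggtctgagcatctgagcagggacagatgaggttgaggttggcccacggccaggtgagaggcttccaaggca
The letters were in 11 of 40 windows of the ATF4 list, 27.5%, and in 3.7% of all 27305 windows. Of the 21 members with a window that passed the test in either direction, 4 held them. A match describes the letters only and not a bound site.

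Interferon-stimulated genes form the antiviral programme downstream of nucleic acid sensing. Of 41 measured, 7 rose, 7 fell and 27 did not pass (median 0.037, with 12 rising and 4 falling under library totals), shares near those of all genes (14.2% rose and 18.4% fell). IFITM2, an entry-restricting membrane protein gene, fell from 17.5, 17.3 and 16.1 CPM to 10.9, 10.3 and 11 CPM (log2 fold change -0.66 ± 0.09, adjusted p = 1.46e-08). IFITM1 fell by 0.73, from 9.71, 9.41 and 7.43 CPM to 4.54, 6.22 and 5.4 CPM, with no overlap. TRIM22 rose by 0.69 and the exonuclease gene ISG20 by 0.99, with TRIM22 at 2.04, 2.11 and 2.16 CPM at 0 h and 3.75, 2.89 and 3.5 CPM at 72 h, and ISG20 at 1.21, 1.06 and 0.770 CPM and at 2.23, 2.12 and 1.78 CPM. The call of TRIM22 ended without 72 h replicate 1 (adjusted p = 0.0513) and that of ISG20 without 0 h replicate 3 (0.0507). IRF9, part of the interferon-activated factor, had 2 counts at 0 h and 2, 11 and 23 counts in the 72 h libraries, a wide spread (ratio 17.3, 95% counting interval 4.46 to 148). MX1 and IFIT1 stood at 0.50 and -0.51 and did not pass. The response of IFITM2 was more negative than the mean of the other 4 lines by 0.58 (adjusted p = 8.00e-05), where its fold changes ran from -0.42 to 0.15. Of the 11 nucleic acid sensor genes measured of 20 listed, CGAS rose and STING1 fell. CGAS had 0, 2 and 5 counts at 0 h and 18, 30 and 7 at 72 h, and its call ended without 0 h replicate 1 or 2 or 72 h replicate 2 (adjusted p of 0.0891 to 0.164). STING1, its adaptor, went from 24.1, 23.5 and 20.8 CPM to 16.2, 17.7 and 18.7 CPM (-0.38 ± 0.08). HLA class I presentation genes rose in 3 of 19 cases (ERAP2 at 0.89, NLRC5 at 0.56 and ERAP1 at 0.39) and fell in 7, and the call of NLRC5 ended without 0 h replicate 3 (adjusted p = 0.0781) or 72 h replicate 1 (0.0853). HLA-C went from 113, 116 and 112 CPM to 85.5, 83.3 and 88.2 CPM. Under library totals 5 of the 19 HLA class I genes rose and 2 fell.

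Mitotic genes stood below the median gene, as did genes over 64 CPM of any kind (median -0.139). Of 54 G2/M and mitosis genes measured, 36 fell, 1 (CDC25A at 0.21) rose and 17 did not pass, with a median of -0.207, or -0.056 under library totals, where 15 fell and 4 rose. UBE2C, an E2 enzyme of the anaphase-promoting complex, was at 146, 142 and 132 CPM at 0 h and 99.4, 92.9 and 95.4 CPM at 72 h. It fell by 0.55 ± 0.07 with no overlap (adjusted p = 8.17e-09). UBE2S fell by 0.52, the survivin gene BIRC5 by 0.44 and the securin gene PTTG1 by 0.43. PLK1, the mitotic polo-like kinase, went from 170, 175 and 157 CPM to 126, 120 and 132 CPM (-0.41 ± 0.06). The proliferation marker MKI67 stood at -0.02 and did not pass. The median was -0.05 at 24 h.

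The promoter window of PLK1 (chr16:23678639-23678938, GRCh38.p14, plus strand) is shown because PLK1 is a textbook target of late cell cycle control and holds the letters of a cell cycle homology region, TTTGAA, in capitals.
PLK1: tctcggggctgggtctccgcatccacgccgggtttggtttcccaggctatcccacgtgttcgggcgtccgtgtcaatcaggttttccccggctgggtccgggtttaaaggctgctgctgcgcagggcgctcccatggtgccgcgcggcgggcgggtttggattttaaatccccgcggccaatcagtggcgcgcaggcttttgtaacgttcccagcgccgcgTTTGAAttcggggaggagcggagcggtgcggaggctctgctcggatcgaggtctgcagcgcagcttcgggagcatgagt
These letters, read on either strand, were in 32 of 46 windows of the G2/M list, 69.6%, and in 15.4% of all windows. Among the 29 members with a window that passed, 17 held them.

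For G1/S and DNA replication genes the direction depended on the scaling: of 59, 7 rose and 22 fell (median -0.087), while 20 rose and 7 fell under library totals (median 0.063). E2F8 and E2F7, atypical repressors of the E2F family, rose by 0.65 and 0.49. E2F7 was at 46.1, 51.9 and 54.6 CPM at 0 h and 69.7, 72.6 and 71.4 CPM at 72 h, with no overlap. The polymerase subunits POLE2 (-0.47) and POLD2 (-0.39) fell. Of the G1 cyclin genes, CCNE1 rose by 0.34, and CCND1 and CCND2 fell by 0.20 and 0.21. DNA repair genes rose in 13 of 40 cases and fell in 10 (median 0.021, with 22 and 3 under library totals). XRCC2, a homologous recombination gene, rose by 0.70, from 34.8, 34.5 and 41.7 CPM to 58.3, 64.2 and 58.0 CPM, RAD52 by 0.64, the theta polymerase POLQ by 0.52 and the damage kinase ATM by 0.45. The end-joining genes XRCC5 and XRCC6 fell by 0.33 and 0.28. Histone and DNA modifying enzymes were split, with 15 of 72 rising and 16 falling (34 and 2 under library totals). Of all genes, 14.2% rose and 18.4% fell with TMM scaling. HDAC10 (1.0), KDM6B (0.56), which encodes a H3K27 demethylase, EZH1 (0.55) and HDAC4 (0.44) rose, while CARM1 fell by 0.39.

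Genes of energy metabolism and translation stood lowest as groups. All genes over 64 CPM had a median of -0.139, and the part of this level trend in these lists was not tested. Nuclear genes of oxidative phosphorylation fell in 49 of 57 cases, rose in 0 and did not pass in 8 (median -0.332). Under library totals 33 fell and 0 rose. COX8A, a cytochrome c oxidase subunit gene, was at 97.3, 104 and 89.0 CPM at 0 h and 69.2, 65.0 and 63.9 CPM at 72 h (-0.55 ± 0.08). NDUFA4 fell by 0.50, COX5B by 0.48 and NDUFB10 by 0.47. Of the 13 protein genes of the mitochondrial genome, 12 did not pass, and MT-ND6, the light-strand gene, rose from 21.4, 18.1 and 31.3 CPM to 34.6, 47.9 and 55.8 CPM. The call of MT-ND6 ended in the AC1.112 libraries fitted alone (1.01, adjusted p = 0.0665). Cytosolic ribosomal protein genes fell in 66 of 79 cases, rose in 1 and had a median of -0.293. The riser, RPL17 at 0.43, overlaps a readthrough gene, and its call ended without any 1 of 4 libraries (adjusted p of 0.145 to 0.209). RPS14 went from 1802, 1667 and 1715 CPM to 1356, 1231 and 1223 CPM and RPL10 from 1862, 1927 and 1703 CPM to 1386, 1342 and 1350 CPM. Under library totals 41 ribosomal protein genes fell and 1 rose. The list medians at 24 h were -0.05 for oxidative phosphorylation and -0.02 for ribosomal proteins, against the same 0 h libraries. Ribosome biogenesis genes were mixed, 6 of 46 rising and 10 falling (18 and 3 under library totals), near the shares of all genes with TMM scaling (14.2% and 18.4%). RRP12 stood at 0.37, UTP20 at 0.30, NOP10 at -0.43 and NHP2 at -0.36.

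Glycolysis and hypoxia genes fell in 26 of 44 cases and rose in 4 (median -0.226, and 16 fell and 7 rose under library totals). ALDOA, the muscle-type aldolase gene, went from 950, 1010 and 860 CPM to 639, 635 and 624 CPM (-0.57 ± 0.07), and PGAM1 fell by 0.50. VEGFA, a secreted hypoxia target, rose by 0.58 from 24.2, 18.1 and 21.9 CPM to 31.9, 31.4 and 32.7 CPM, and ANKRD37 (0.62), TXNIP (0.26) and ARRDC3 (0.24) rose too. The call of ANKRD37 ended without 0 h replicate 1 or 3 or 72 h replicate 1 (adjusted p of 0.0691 to 0.218). NRF2 targets, which protect against oxidants, fell in 18 of 31 cases and rose in 2, NFE2L2 at 0.22 and ABCC2 at 1.17 (median -0.284, and 13 fell and 3 rose under library totals). HMOX1, the heme oxygenase gene, went from 19.6, 21.7 and 20.1 CPM to 11.8, 12.2 and 11.7 CPM (-0.79 ± 0.08, adjusted p = 1.12e-10). PIR fell by 0.66, PRDX1 by 0.55 and TALDO1 by 0.48. Cholesterol genes fell in 15 of 31 cases and rose in 3 (median -0.184), though 4 fell and 8 rose under library totals. INSIG1, a sterol sensor that holds back cholesterol synthesis, fell from 387, 393 and 386 CPM to 277, 279 and 267 CPM, EBP by 0.37 and FDPS by 0.32. The lipid exporter ABCA1 rose by 1.28, from 0.270 to 0.470 CPM to 0.625 to 1.05 CPM, NPC1L1 by 0.91 and MYLIP by 0.25. Fatty acid genes fell in 11 of 21 cases, AGPAT2 by 0.47 and ACSS2 by 0.38, and rose in 2, MLXIPL at 0.58 and LPIN1 at 0.33, whereas 4 fell and 6 rose under library totals.

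Of 44 splicing regulators, 13 rose and 14 fell (median -0.056, with 18 rising and 7 falling under library totals). CLK1, a kinase of SR proteins, was at 22.2, 18.5 and 23.8 CPM at 0 h, 46.3 CPM on average at 24 h and 52.9, 52.5 and 49.6 CPM at 72 h, more than double with no overlap (1.27 ± 0.13, adjusted p = 1.10e-08). CLK4 rose by 0.86, CLK3 by 0.37 and CLK2 by 0.31. LUC7L3, a U1 snRNP-associated factor gene, rose from 143, 127 and 141 CPM to 246, 268 and 254 CPM. Of the hnRNP genes, HNRNPD (-0.36), HNRNPM (-0.34), HNRNPL (-0.29) and HNRNPA1 (-0.28) fell. Outside the list, CCNL2, a cyclin linked to splicing, rose by 1.32 from 48.5, 39.2 and 57.2 CPM to 116, 122 and 122 CPM. DDX39B, an RNA helicase gene of splicing and export, rose by 1.08, and PCF11, a 3' end processing factor gene, by 0.73. PCF11 rose by 0.43 more than the mean of the other lines (adjusted p = 2.60e-04). Counts per gene do not tell spliced from unspliced messages.

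TGF-beta, BMP and ID genes, which control growth and differentiation, rose in 4 of 38 cases and fell in 14 (median -0.093), with 8 rising and 6 falling under library totals. Of the genes that fell, ID2 is given above, ID3 went from 25.6, 24.4 and 24.0 CPM to 14.9, 14.3 and 13.1 CPM, and SMAD6, an inhibitory SMAD gene, from 6.22, 7.48 and 7.24 CPM to 4.13, 3.56 and 4.28 CPM. ID1 (-0.53), ID4 (-0.39) and ATOH8 (-1.20) fell as well. The call of ATOH8 ended without 0 h replicate 2 (-0.83, adjusted p = 0.0988). ID3 averaged 7.32 CPM at 24 h, below its level at 72 h. Risers were CHRD (0.56), TGFB3 (0.41), SKIL (0.28) and SMURF2 (0.17), and the call of CHRD ended without any 1 of 4 libraries (adjusted p of 0.0641 to 0.143). Extracellular matrix genes rose in 4 of 49 cases and fell in 16 (median -0.097, with 13 rising and 9 falling under library totals), and their median was -0.429 at 24 h. COL3A1, a fibrillar collagen gene, was at 23, 21.9 and 23.8 CPM at 0 h, 8.56 CPM at 24 h and 11.9, 11.6 and 11.9 CPM at 72 h (-0.95 ± 0.09, adjusted p = 1.20e-11). CDH3, the P-cadherin gene, fell by 0.68, COL9A3 by 0.51 and TIMP1 by 0.48, and the risers were COL4A5, ITGA2, COL5A2 and MMP14. Wnt pathway genes rose in 6 and fell in 10 of 41 cases, and Notch pathway genes rose in 6 and fell in 4 of 28, whereas 11 and 2, and 13 and 1, rose and fell under library totals. With TMM scaling both lists lay near the shares of all genes (14.2% rose and 18.4% fell). AXIN2, a feedback target of Wnt, rose by 0.49 and CTNNB1 fell by 0.34. NOTCH1 rose by 0.43 and HES7 by 1.06, while the Notch target HES5 fell by 0.51, along with DLL3, HEY1 and NRARP. The call of HES5 ended under library totals (-0.36, adjusted p = 0.0961) and without 72 h replicate 3 (0.0853).

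Metallothioneins and zinc transporters, which buffer and move metal ions, rose in 3 and fell in 5 of 14 measured cases (median -0.027, and 4 rose and 4 fell under library totals, with a median of 0.123). MT2A went from 36.4, 41.4 and 34.3 CPM to 25, 24.7 and 25.2 CPM (-0.58 ± 0.10, adjusted p = 5.45e-06) and MT1X from 16.8, 19.1 and 16.4 CPM to 12.5, 12 and 11.3 CPM. MT1G had 55 counts at 0 h and 20 at 72 h, and SLC39A1 (-0.28) and SLC30A5 (-0.17) fell. The 3 metallothioneins are close paralogues, so reads may be shared. SLC30A2, a zinc exporter gene, rose from 5.35, 5.15 and 3.39 CPM to 9.96, 8.83 and 9.06 CPM, and MTF1, the metal-responsive transcription factor gene, rose by 0.43 and SLC30A1 by 0.15. The response of SLC30A2 was smaller than the mean of the other lines by 0.71 (adjusted p = 0.00549).

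The promoter windows of MT2A (chr16:56608334-56608633) and MT1X (chr16:56682220-56682519), both GRCh38.p14 and plus strand, are shown because both genes fell and hold the letters of the metal response element, in capitals.
MT2A: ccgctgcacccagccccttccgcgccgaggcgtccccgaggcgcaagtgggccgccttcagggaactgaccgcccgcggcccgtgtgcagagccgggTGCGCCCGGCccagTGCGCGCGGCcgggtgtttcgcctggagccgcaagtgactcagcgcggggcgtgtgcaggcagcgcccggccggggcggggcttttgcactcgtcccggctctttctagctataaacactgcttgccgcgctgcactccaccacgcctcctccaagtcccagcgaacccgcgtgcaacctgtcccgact
MT1X: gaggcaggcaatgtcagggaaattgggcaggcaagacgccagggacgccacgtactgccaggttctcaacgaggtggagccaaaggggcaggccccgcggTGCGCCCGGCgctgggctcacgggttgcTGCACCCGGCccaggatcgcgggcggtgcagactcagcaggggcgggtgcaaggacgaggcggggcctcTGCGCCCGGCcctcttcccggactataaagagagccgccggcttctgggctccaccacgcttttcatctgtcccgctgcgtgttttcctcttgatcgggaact
Read on either strand, these letters were in 4 of 11 windows of the list and in 2.6% of all windows.

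Heat shock genes rose in 10 and fell in 14 of 37 cases (median -0.072, with 14 rising and 4 falling under library totals). CHORDC1, an HSP90 partner gene, rose by 0.49, from 42.9, 41.4 and 39.4 CPM to 60.0, 59.5 and 54.4 CPM, after 78.1 CPM at 24 h. HSPA6, an inducible HSP70 gene, stood at 0.358, 0.502 and 0.770 CPM at 0 h, 4.07 CPM at 24 h and 1.5, 1.5 and 2.02 CPM at 72 h. Both were higher at 24 h than at 72 h. HSPB8 fell by 0.42. Unfolded protein response genes of the endoplasmic reticulum rose in 9 and fell in 11 of 33 cases (13 and 2 under library totals). PPP1R15A, a phosphatase subunit that reverses eIF2 phosphorylation, rose from 75.9, 72.8 and 69.7 CPM to 102 CPM in each library, and DERL3 rose by 0.63, while SDF2L1 fell by 0.55. The main chaperone gene HSPA5 stood at -0.08 and did not pass. Lysosome and autophagy genes rose in 3 and fell in 20 of 47 cases, whereas 12 rose and 6 fell under library totals. CTSD, the cathepsin D gene, went from 136, 140 and 120 CPM to 94.6, 94.5 and 96.0 CPM, CTSB and ATG9A fell by 0.44 and 0.39, and ATG14 (0.66), NEU1 and OPTN rose. BCL2 family genes rose in 4 and fell in 7 of 19 cases, among them BCL2L11 (0.29), which promotes cell death, and BCL2L1 (-0.33), which opposes it. The other risers were BBC3, BCL2L2 and BCL2, the last with a call that ended without any 1 of 4 libraries (adjusted p of 0.0793 to 0.160). Under library totals 5 rose and 2 fell.

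Receptors and trafficking factors that adeno-associated virus uses on entry rose in 0 of 38 cases and fell in 12 (median -0.12), while 7 rose and 5 fell under library totals. RPSA, the laminin receptor and ribosomal protein gene, went from 3508, 3300 and 3386 CPM to 2658, 2467 and 2447 CPM. VPS51 fell by 0.36, KPNA2 by 0.35 and RAB11A by 0.33. The receptor gene KIAA0319L stood at -0.09 and did not pass. Tubulin and stathmin genes fell in 14 of 22 cases and rose in 2 (median -0.283, with 10 falling and 2 rising under library totals). TUBB went from 2110, 2229 and 1918 CPM to 1410, 1419 and 1408 CPM and TUBA1B from 2808, 2838 and 2569 CPM to 1920, 1870 and 1862 CPM.

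HBB, the adult beta-globin gene, had no count in the 3 libraries at 0 h and 210, 171 and 148 counts at 72 h (ENSG00000244734, GRCh38 chr11:5225464-5229395, minus strand). It was at least 170-fold higher, against a floor of 3 counts over the 0 h group (lower limit of the 95% counting interval 137). It averaged 1.52 CPM at 24 h and stood at 4.38, 4.84 and 3.52 CPM at 72 h. At 72 h it averaged 6.05 CPM in 293F, 6.36 in AC1.203, 2.24 in AC1.230 and 1.86 in AC1P. Beta-globin introns and polyadenylation signals are common parts of expression plasmids. The plasmid sequences were not analysed here, so reads from the gene and from such parts cannot be told apart. Of the 9 measured genes on the list of human sequences often carried on plasmids, HBB and HBA2 rose, and ACTB (-0.62), EEF1A1 (-0.44) and PGK1 (-0.38) were among those that fell. HBA2 went from 63 to 133 counts, and its call ended in 8 alternatives. These included leaving out any 1 of 4 libraries (adjusted p of 0.0536 to 0.306). The haematopoietic marker PTPRC had no count at either time, and the summed level of the 9 other measured haematopoietic markers was 4.43 to 6.13 CPM at 0 h and 4.89 to 6.79 CPM at 72 h, in ranges that overlap. Of these, HBA2 rose.

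Neuronal genes rose in 5 and fell in 2 of 21 measured cases. STMN4, a stathmin gene of neurons, went from 0.671, 0.661 and 0.578 CPM to 4.0, 5.69 and 5.42 CPM, or 70 counts to 621, a ratio of 8.54 (95% counting interval 6.66 to 11.1). Few counts were assigned to ELAVL3 (2 and 24, ratio 11.5 with interval 2.87 to 101), TUBB3 (8 and 52) and NEFH (3 and 16, ratio 5.13 with interval 1.47 to 27.5). Whether reads of these genes were lost to overlapping genes was not tested. INA rose by 0.27. The calls of ELAVL3, NEFH and INA ended without any 1 of 3 or 4 libraries (adjusted p of 0.0573 to 0.223), and that of TUBB3 without 0 h replicate 2 (0.0644). In all, the call of NEFH ended in 8 alternatives. The abundant NEFM fell from 4317, 4814 and 4110 CPM to 2980, 3132 and 3088 CPM and NEFL from 1155, 1168 and 1098 CPM to 811, 802 and 802 CPM. The summed level of the list, 5253 to 6034 CPM at 0 h and 3848 to 3993 CPM at 72 h, was mostly that of these neurofilament genes. Kidney markers rose in 1 of 18 cases, EYA1 at 0.19 with a call that ended without any 1 of the 6 libraries, with sums of 117 to 130 and 118 to 124 CPM, and fibroblast markers fell in 1 of 8, COL3A1, with sums of 101 to 115 and 104 to 108 CPM, while FAP had no count at either time.

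The response of AC1.112 was set against the mean response of the other 4 lines, which shares no control sample with it. The difference was called, at an adjusted p under 0.05 and at least 1 on the log2 scale, for 29 of 21242 genes (0.137%), 4 more positive and 25 more negative. Without the 293F line 4 genes were more negative and 2 more positive. The 4 more positive genes were SPDYE21 (5.01), CDC42P6 (1.58), ENSG00000253333 (1.39) and ENSG00000270605 (1.16), of which the first 3 are pseudogenes and the last an antisense gene. DHRS2, a mitochondrial and nuclear dehydrogenase gene chosen after its values were seen, was at 28.3, 33.9 and 27.1 CPM at 0 h and 44.7, 45.3 and 40.5 CPM at 72 h. It rose by 0.54 in AC1.112 and by 0.86 to 2.75 in the other lines, a difference of -1.15 ± 0.09 (adjusted p = 1.49e-15). At 0 h DHRS2 was 29.8 CPM ± 3.61 (SD, n = 3) in AC1.112 and 5.83 to 24.5 CPM in the other lines, and at 72 h 43.5 ± 2.62 against 38.9 to 56.4 CPM. RFPL4A and RFPL4AL1, near-identical neighbours on chromosome 19, differed by -1.61 and -1.64. RFPL4A started at 6.10 CPM ± 0.379 in AC1.112 and at 0.218 to 1.38 CPM in the other lines, and reached 9.24 and 1.45 to 10.9 CPM. AC1.112 thus had the highest level of DHRS2 and of RFPL4A among the 5 lines at 0 h, and 293F lay above it for both at 72 h. STMN4 (-1.67), H4C8 (-1.40), H2BC5 (-1.03) and CEND1 (-2.06), a neuronal differentiation gene, had smaller rises than the mean of the other lines. H1-2 and H2BC5 fell below the limit of 1 without 293F (-0.975 and -0.735) or AC1.203 (-0.792 and -0.644), at an adjusted p under 0.05. DHRS2 did so without AC1.203 (-0.777), and H2BC5 also without 0 h replicate 3 (-0.989). The calls for STMN4, H4C8 and CEND1 ended without the 293F line, at adjusted p of 0.189, 0.103 and 0.114. They ended without AC1.203 as well (0.0801, 0.0841 and 0.0737). The STMN4 call also ended without 0 h replicate 2 (0.0744), without 72 h replicate 1 (0.0556) and with thinned counts (0.174), and the CEND1 call without 0 h replicate 2 (0.123) and without 72 h replicate 3 (0.0536).

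Below the 2-fold limit, TFRC went the other way. This gene encodes the transferrin receptor, which takes up iron, and was chosen after its values were seen. It was at 133, 124 and 137 CPM at 0 h and 176, 170 and 167 CPM at 72 h, a rise of 0.38 ± 0.05 with no overlap. The fold change was -1.0 in 293F, -0.39 in AC1.203, 0.18 in AC1.230 and 0.47 in AC1P, and the difference from their mean was 0.57 (adjusted p = 6.33e-10). Immediate early genes were more negative than in the other lines in 12 of 42 cases and more positive in 1, and NF-kB genes in 4 and 0 of 32, against 1.56% and 0.819% of all genes. In the oxidative phosphorylation (57) and ribosomal protein (79) lists 0 genes passed, a count near those low shares.

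**Figure D4:**
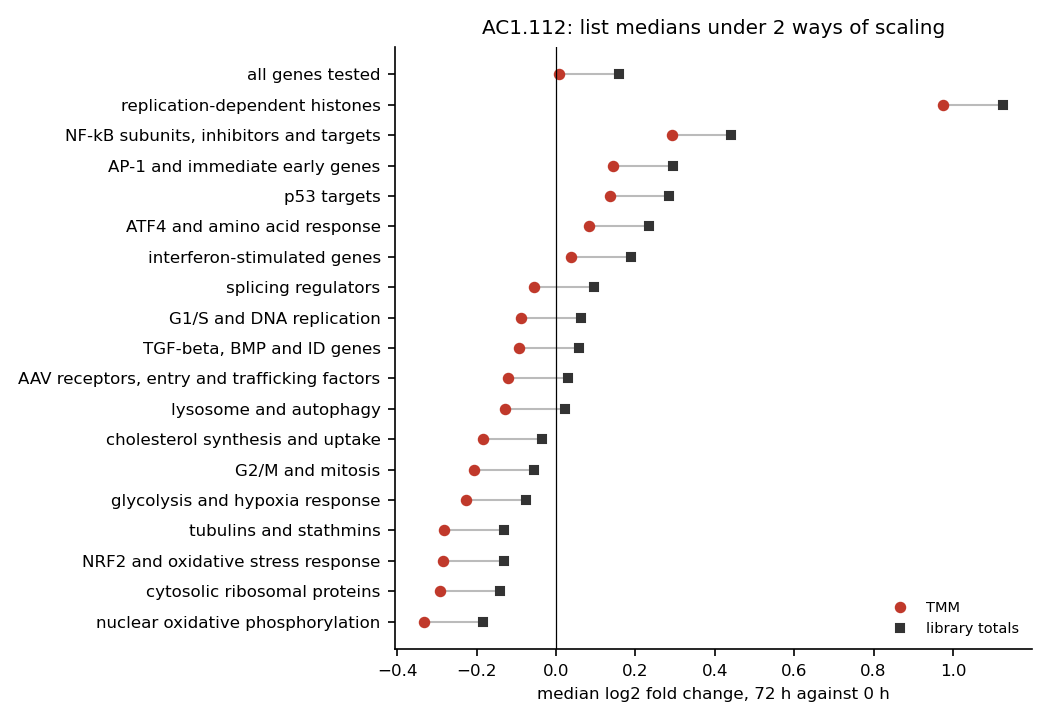
Median log2 fold change at 72 h against 0 h (horizontal axis) of all genes tested and of 18 gene lists in AC1.112, with TMM scaling (red circles) and with library totals alone (black squares). The median of all genes moves from 0.008 to 0.159, the list medians move up beside it, and lists near 0 change sign, such as G1/S from -0.087 to 0.063.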

How the data were processed

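Gene expression was measured by RNA sequencing of polyadenylated RNA (Illumina Stranded mRNA prep, per the labels' protocols). The authors deposited raw read counts per Ensembl gene, with HISAT2, Subread, featureCounts and GRCh38 named in the submitters' processing notes. The sources used here do not give the strand setting or tool versions. The count files listed 60675 genes, and 0 rows named no gene.

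From these counts, edgeR 4.0.16 (R 4.3.3) kept 21242 genes in all 45 libraries (filterByExpr, minimum count 10, minimum total 15), scaled them by TMM and fitted 15 groups by robust quasi-likelihood with Benjamini-Hochberg adjustment, so that all lines share 1 estimate of the spread. The AC1.112 fold change minus the mean of the other 4 lines was tested in the same fit. The procedure was tested on simulated data.

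Members and lists were chosen with earlier results of these data known. The text names the 12 highest and 12 lowest protein-coding genes called at 3 or more on the mean log2 CPM scale with no overlap (45 and 2 met this), up to 4 genes of each of 37 lists at a log2 CPM of at least 1, up to 6 genes each way of those called in both tests, and HBB. Other genes were chosen after their values were seen, among them well-known list members that did not pass. Floors were 3 counts over a group, and 95% intervals cover counting error only. Alternatives were RLE factors, DESeq2 1.42.0, no filter, the AC1.112 libraries alone, thinned counts, a replicate block, each library or line left out, and library totals. Some genes are not reported here.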

Additional observations from a re-analysis of the deposited data

Results flagged for a closer look

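In edgeR's test, 29 genes were called for a difference between the response of AC1.112 and the mean response of the other 4 lines. Of these, 25 were more negative and 4 more positive. The 8 named here each rose less in AC1.112 than that mean. The difference in log2 fold change was -1.24 for H1-2, -1.40 for H4C8 and -1.03 for H2BC5, which are histone genes. It was -1.15 for DHRS2, -1.67 for STMN4 and -2.06 for CEND1. RFPL4A and RFPL4AL1 differed by -1.61 and -1.64, and reads may be shared between these near-identical neighbours. H1-2 and H2BC5 fell below the limit of 1 without 293F (-0.975 and -0.735) or AC1.203 (-0.792 and -0.644), at an adjusted p under 0.05. DHRS2 did so without AC1.203 (-0.777), and H2BC5 also without 0 h replicate 3 (-0.989). The calls of H4C8, STMN4 and CEND1 ended without the 293F or the AC1.203 line, at an adjusted p over 0.05. Those of STMN4 and CEND1 also ended without 0 h replicate 2 (adjusted p of 0.0744 and 0.123), that of STMN4 without 72 h replicate 1 (0.0556) and with thinned counts (0.174), and that of CEND1 without 72 h replicate 3 (0.0536).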

How the results depend on the processing

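The 843 genes called higher became 3017 with no minimum fold change, 646 to 808 with 1 library left out and 1170 with library totals. The 68 called lower became 3909 with no minimum fold change, 57 to 88 with 1 library left out, and, in alternatives chosen after seeing the data, 39 with library totals and 43 in the AC1.112 libraries alone with a replicate block. Of differences from the other 4 lines, the 4 more positive became 174 with no minimum fold change, 8 with no filter on low counts, 2 to 8 with 1 library left out, and 2, 9, 14 and 11 without 293F, AC1.203, AC1.230 and AC1P. The 25 more negative became 332 with no minimum fold change, 11 without 0 h replicate 2 and 39 without 0 h replicate 3 (the range with 1 library left out), and 4, 39 and 50 without 293F, AC1.230 and AC1P. The cause was not tested. With the replicate block across all lines, 800 genes were called higher and 60 lower, and 3 and 22 for the difference. No pairing by replicate number was seen: deviations from the group means correlated at 0.011, -0.009 and -0.005 for same-numbered libraries. For differently numbered libraries they correlated at -0.008 to 0.012. Whether same-numbered libraries came from 1 culture cannot be told from these values. Of 177 named results, 30 lost an adjusted p under 0.05 in some alternative, 4 of them under the replicate block, and 0 reversed. For single genes, here and above, a call that ended means this loss alone, with the size limit left aside. The differences of H1-2, H2BC5 and DHRS2 that fell below 1 are therefore outside the 30. The libraries named beside a gene are not always all the alternatives that ended its call. DESeq2 called 905 higher and 83 lower. Depth limits genes under 0.25 CPM, many of which rest on few counts.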
